A study of Sus scrofa with 13 samples.

Results

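Genes coding for the enzymes that store and release glycogen in muscle were followed in loin muscle of pigs with high or low loin weight. The set held 9 of the 25322 genes in the count tables, named by function from a list of glycogen enzymes and their regulatory subunits and found by symbol in both tables. These were GYS1, GYG1, GBE1 and UGP2 on the synthesis side, PYGM, PHKA1, PHKB and PHKG1 on the breakdown side, and PPP1R3A, which targets a phosphatase to glycogen. All 9 passed the filter on low counts in each comparison.

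The muscle was longissimus lumborum, the main muscle of the loin, from 13 female pigs aged 6 months of the sire-line breeds Hampshire and Pietrain. Carcasses were dissected and pigs at the extremes of loin weight were picked within each breed, giving 3 high and 3 low pigs in Hampshire and 4 high and 3 low pigs in Pietrain. The animals shared housing and feeding and were not close relatives. By the sample labels each library stands for 1 animal. RNA of an integrity number above 7.5 was used, and the libraries were pooled and sequenced in technical replicates. The group sizes are those of the sample labels, and the study's own description gives fewer pigs for the Pietrain high group. That description also gives a wider gap in mean loin weight between the Hampshire groups than between the Pietrain groups. High against low is therefore not a contrast of equal size in both breeds. Pigs are called below by the number in their sample title, which does not pair animals between groups.

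Glycogen is a branched store of glucose held inside muscle fibres. It grows when glycogenin starts a chain, UDP-glucose supplies the units, glycogen synthase adds them and the branching enzyme makes side branches, and it is broken down chiefly by glycogen phosphorylase. Phosphorylase kinase switches phosphorylase on in response to calcium and hormones, and protein phosphatase-1, held on the glycogen particle by its targeting subunits, switches phosphorylase off and synthase on. Fast fibres are known to depend more on this store than slow fibres, and glycogen left at slaughter bears on how far the pH of pork falls.

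The libraries held 11312755 to 20134612 counts per pig. Levels are given as CPM, counts scaled to a common library size by TMM over all 13 pigs, and log2 fold changes are for high against low loin weight unless said otherwise. A gene was called when the Benjamini-Hochberg adjusted p-value of edgeR's quasi-likelihood test was under 0.05 and the fold change was at least 1.2. CPM is not corrected for transcript length, so levels are compared between pigs and not between genes. In a principal component analysis the first component (49.8% of the variance) ran from the Hampshire high pigs (-82.3 to -58.7) through the Hampshire low pigs (-20.8 to -3.99) to the Pietrain pigs (4.94 to 55.1). Within Hampshire, 26.6% of the 12228 genes tested were called, and within Pietrain 0% of 12065.

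In Hampshire, 4 of the 9 glycogen genes were called lower in the high pigs and 0 were called higher, where 14.6% of all genes tested were called lower and 12% higher. PPP1R3A was 2.48-fold lower, PHKA1 2.06-fold, GYS1 1.70-fold and PHKB 1.69-fold. The other 5 genes, GYG1, GBE1, UGP2, PYGM and PHKG1, did not pass the test. The median log2 fold change of the 9 genes was -0.76, where that of all genes was 0.03. The set was chosen with earlier results of these data known, so these shares and medians describe it and do not test it. In Pietrain 0 of 9 were called by edgeR or by DESeq2, 0 had an unadjusted p-value under 0.05 (3.3% of all genes did), and the median was -0.15. The loin weight effect was also compared between the breeds, as the log2 fold change in Hampshire minus that in Pietrain. Of these 9 differences, that of PPP1R3A passed the test.

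**Figure D1:**
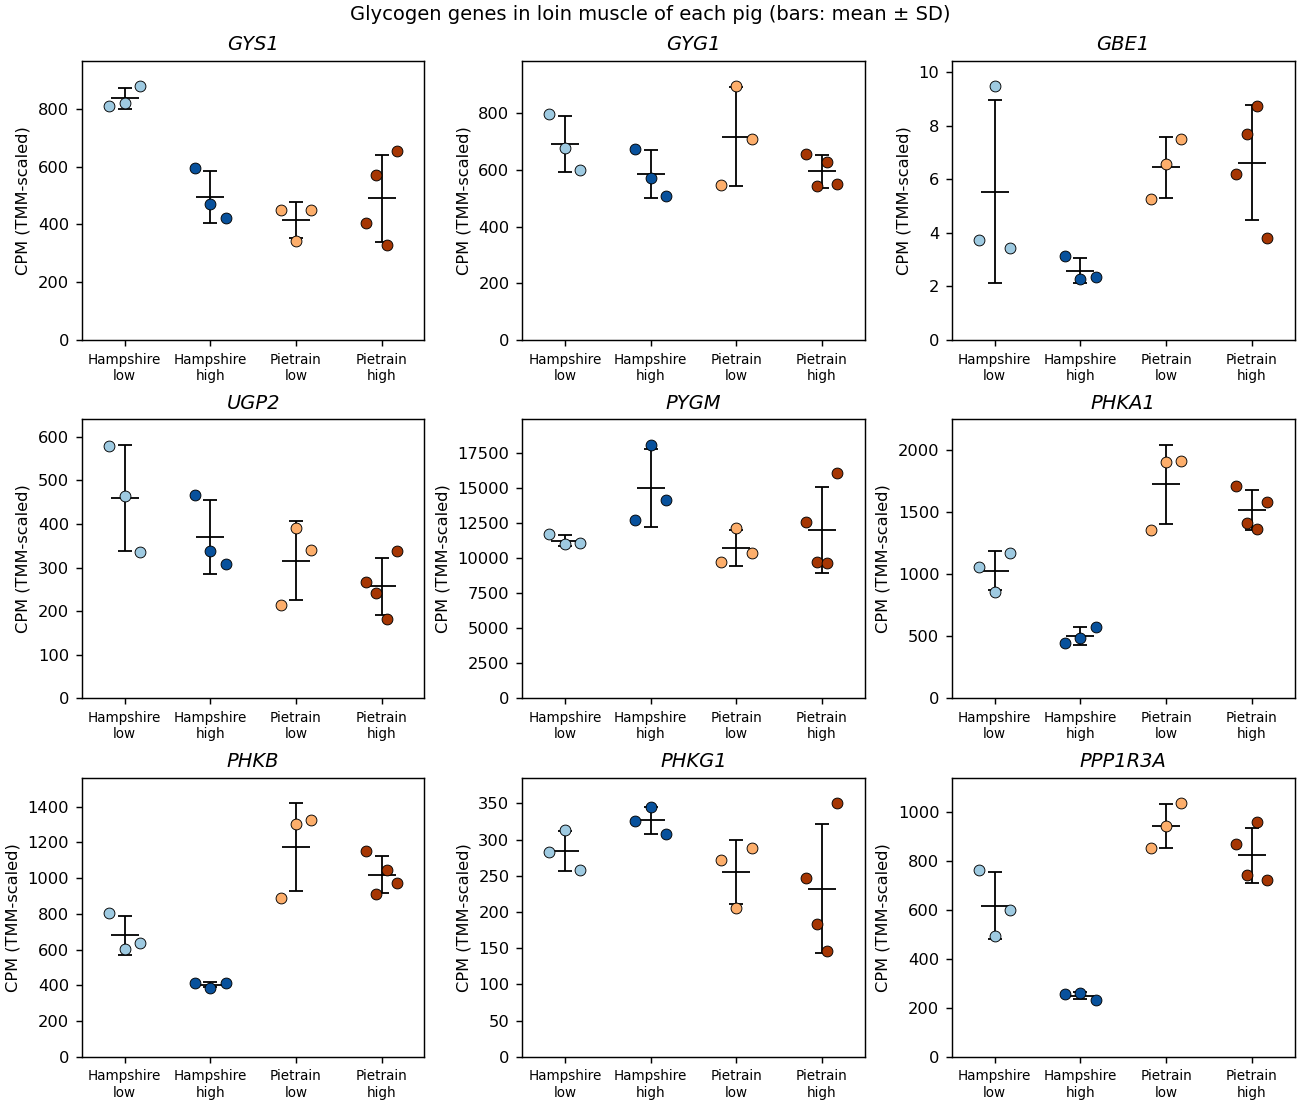
Level of each of the 9 genes (CPM, linear axis from 0) in the 4 groups, with 1 point per pig and bars for the mean and SD. The Hampshire high pigs sit lowest for GBE1, PHKA1, PHKB and PPP1R3A with no overlap with any other group. The share of all genes that separate from every other group in this way was not counted. The Hampshire low pigs sit highest for GYS1, at 809.9 to 878 CPM.

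GYS1 codes for muscle glycogen synthase, the enzyme that lengthens the glucose chains (6:50078376-50097694 on Sscrofa10.2). Its level was 594, 471 and 422 CPM in Hampshire high pigs 8, 9 and 10 (496 ± 88.9, SD, n = 3), and 809.9, 822 and 878 CPM in Hampshire low pigs 1, 2 and 3 (837 ± 36.2, SD, n = 3). All 3 high pigs lay below all 3 low pigs. The log2 fold change was -0.76 (SE 0.18, adjusted p = 0.0166, edgeR's quasi-likelihood test). Without Hampshire low pig 3 it was -0.73 (adjusted p = 0.0663, edgeR), and without Hampshire high pig 10 it was -0.67 (adjusted p = 0.0659, edgeR). In Pietrain the level was 405, 572, 328 and 654 CPM in high pigs 1, 2, 6 and 7 (489.9 ± 149.7, SD, n = 4) and 449, 342 and 451 CPM in low pigs 3, 5 and 8 (414 ± 62.0, SD, n = 3). The Pietrain groups overlapped, with the highest and the lowest of the 7 pigs both in the high group (log2 fold change 0.28, SE 0.26, adjusted p = 0.939, edgeR). The difference in loin weight effect between the breeds was -0.998 on the log2 scale (SE 0.33) and did not pass (adjusted p = 0.0937, edgeR). It passed with DESeq2 (adjusted p = 0.0413) and without Pietrain high pig 6 (adjusted p = 0.0226, edgeR).

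GYG1 codes for glycogenin, the protein primer on which a glycogen particle starts (13:97219128-97253065). Hampshire high pigs 8, 9 and 10 had 676, 573 and 508 CPM (586 ± 84.7, SD, n = 3) and Hampshire low pigs 1, 2 and 3 had 798, 678 and 601 CPM (693 ± 99.4, SD, n = 3). The groups overlapped and the log2 fold change was -0.25 (SE 0.19, adjusted p = 0.347, edgeR). Pietrain levels ran from 542 to 658 CPM in the high group (595 ± 56.6, SD, n = 4) and from 548 to 895 CPM in the low group (718 ± 174, SD, n = 3), also with overlap (log2 fold change -0.23, SE 0.20, adjusted p = 0.939, edgeR). GYG1 had the smallest spread of group means among the 9 genes, its highest group mean being 1.23 times its lowest.

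UGP2 makes UDP-glucose, the activated sugar that glycogen synthase uses (3:81976147-81989330). Its level was 466, 337 and 307 CPM in Hampshire high pigs 8, 9 and 10 (370.1 ± 84.4, SD, n = 3) and 579, 464 and 335 CPM in Hampshire low pigs 1, 2 and 3 (459.6 ± 122, SD, n = 3). High pig 8 exceeded both low pigs 2 and 3, and the log2 fold change of -0.32 (SE 0.24) did not pass (adjusted p = 0.350, edgeR). In Pietrain the range was 181 to 339 CPM in the high group and 215 to 391 CPM in the low group (log2 fold change -0.25, SE 0.26, adjusted p = 0.939, edgeR).

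GBE1 codes for the branching enzyme, which makes the side branches of glycogen (13:184018402-184112967). It had only 25 to 195 counts per pig, whereas the other 8 genes had at least 2260. Hampshire high pigs 8, 9 and 10 had 3.13, 2.27 and 2.37 CPM, and Hampshire low pigs 1, 2 and 3 had 3.74, 9.48 and 3.43 CPM. The groups did not overlap, and low pig 2 stood well above the other low pigs. The log2 fold change was -1.10 (SE 0.41, 95% interval -2.04 to -0.17). It did not pass after adjustment with edgeR (adjusted p = 0.0764) but passed with DESeq2 (adjusted p = 0.0476). Without low pig 2 it was -0.48 (adjusted p = 0.302, edgeR). The Pietrain pigs ranged from 3.80 to 8.76 CPM in the high group and from 5.26 to 7.53 CPM in the low group (log2 fold change 0.06, SE 0.31, adjusted p = 0.981, edgeR).

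PYGM codes for muscle glycogen phosphorylase, the enzyme that releases glucose units from the chains (2:6542313-6553842), and took 1.03% to 1.60% of all counts in a pig. Hampshire high pigs 8, 9 and 10 had 12749.9, 18081 and 14123 CPM (14985 ± 2768, SD, n = 3), and Hampshire low pigs 1, 2 and 3 had 11737, 10974 and 11049 CPM (11253 ± 420.4, SD, n = 3). Here the 3 high pigs lay above the 3 low pigs, opposite to GYS1, and the low pigs were close together. The log2 fold change of 0.41 (SE 0.22, 95% interval -0.08 to 0.90) did not pass (adjusted p = 0.186, edgeR), and without high pig 9 it was 0.23 (adjusted p = 0.401, edgeR). Pietrain high pigs 1, 2, 6 and 7 had 12582, 9712, 9669 and 16091 CPM (12014 ± 3041, SD, n = 4) and low pigs 3, 5 and 8 had 9697, 12134 and 10359 CPM (10730.0 ± 1260.4, SD, n = 3). These groups overlapped (log2 fold change 0.20, SE 0.22, adjusted p = 0.939, edgeR).

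Phosphorylase kinase is built of α, β and γ subunits with calmodulin, and the muscle forms of these subunits are coded by PHKA1, PHKB and PHKG1. PHKA1, the regulatory α subunit (X:66183818-66288138), was at 443, 484 and 579 CPM in Hampshire high pigs 8, 9 and 10 (502 ± 69.8, SD, n = 3) and at 1058, 859 and 1176.5 CPM in Hampshire low pigs 1, 2 and 3 (1031 ± 160.4, SD, n = 3). No high pig reached the lowest low pig, and the log2 fold change was -1.04 (SE 0.20, adjusted p = 0.00855, edgeR). The call held with each Hampshire pig left out (-1.17 to -0.95, adjusted p up to 0.0433, edgeR). In Pietrain PHKA1 was at 1715, 1418, 1363 and 1585 CPM in high pigs 1, 2, 6 and 7, and at 1359, 1906 and 1915 CPM in low pigs 3, 5 and 8. These groups overlapped, with low pig 3 the lowest of the breed (log2 fold change -0.15, SE 0.19, adjusted p = 0.940, edgeR). The difference in loin weight effect between the breeds was -0.86 (SE 0.27) and did not pass (adjusted p = 0.0759, edgeR). It passed with DESeq2 (adjusted p = 0.0251) and without Pietrain high pig 6 (adjusted p = 0.0421, edgeR).

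PHKB, the regulatory β subunit (6:32141391-32408749), moved in the same direction in Hampshire. High pigs 8, 9 and 10 had 412, 386 and 411 CPM (403 ± 14.6, SD, n = 3) and low pigs 1, 2 and 3 had 804, 601 and 635 CPM (680.1 ± 109, SD, n = 3). The high pigs were nearly alike and all lay below the low pigs (log2 fold change -0.76, SE 0.18, adjusted p = 0.0175, edgeR). Without low pig 3 the change was -0.82 (adjusted p = 0.0517, edgeR), and without high pig 10 it was -0.79 (adjusted p = 0.0520, edgeR). Pietrain pigs had 1153, 913, 1044 and 971 CPM in the high group and 891, 1304 and 1327 CPM in the low group, with overlap (log2 fold change -0.17, SE 0.19, adjusted p = 0.939, edgeR). The difference in loin weight effect between the breeds did not pass (-0.55, SE 0.26, adjusted p = 0.230, edgeR).

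PHKG1, the catalytic γ subunit (3:17074784-17082851), did not follow the regulatory subunits. It was at 326, 345 and 308 CPM in Hampshire high pigs 8, 9 and 10 (326 ± 18.6, SD, n = 3) and at 283, 313 and 257 CPM in Hampshire low pigs 1, 2 and 3 (284 ± 27.8, SD, n = 3). High pig 10 lay below low pig 2, and the log2 fold change of 0.19 (SE 0.16, 95% interval -0.16 to 0.55) did not pass (adjusted p = 0.380, edgeR). Pietrain levels were more scattered, at 247, 184, 147 and 350.2 CPM in the high group (232 ± 89.0, SD, n = 4) and 272, 205 and 289 CPM in the low group (255 ± 44.1, SD, n = 3). The Pietrain log2 fold change was -0.11 (SE 0.29, adjusted p = 0.965, edgeR).

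PPP1R3A codes for the striated muscle subunit that holds protein phosphatase-1 on glycogen, and its position is not given here. Its level was 258, 261 and 232 CPM in Hampshire high pigs 8, 9 and 10 (251 ± 15.8, SD, n = 3) and 764, 493 and 599 CPM in Hampshire low pigs 1, 2 and 3 (619 ± 136, SD, n = 3). The lowest low pig was well above the highest high pig, and the log2 fold change was -1.31 (SE 0.20, adjusted p = 0.00429, edgeR). With each Hampshire pig left out it stayed between -1.46 and -1.17 (adjusted p up to 0.0222, edgeR). In Pietrain the level was 872, 742, 959.9 and 722 CPM in high pigs 1, 2, 6 and 7 (824 ± 112, SD, n = 4) and 855, 943 and 1038 CPM in low pigs 3, 5 and 8 (945 ± 91.3, SD, n = 3). The Pietrain groups overlapped (log2 fold change -0.17, SE 0.18, adjusted p = 0.939, edgeR). The effect of loin weight differed between the breeds by -1.11 on the log2 scale (SE 0.26, adjusted p = 0.0249, edgeR), and the adjusted p was 0.0504 without Hampshire high pig 10. In that comparison 5.9% of all 12831 genes tested were called either way and 4.22% with a lower value in Hampshire.

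**Figure D2:**
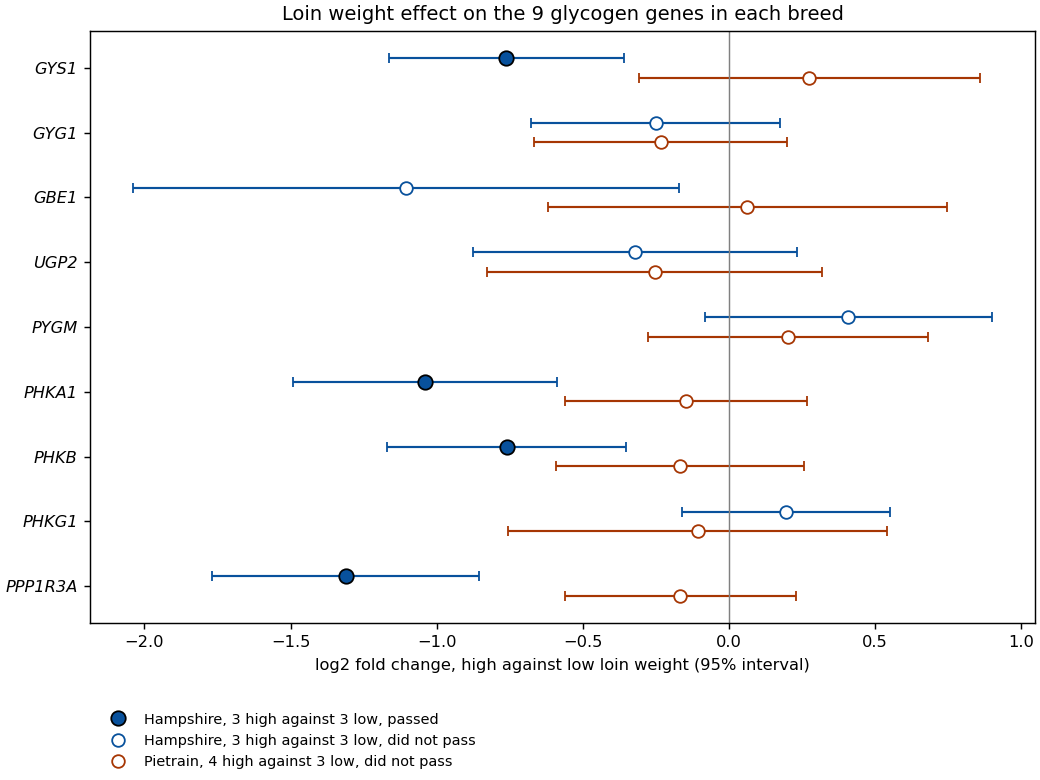
Log2 fold change of each gene for high against low loin weight, with its 95% interval from edgeR, in Hampshire (blue) and Pietrain (orange). Filled circles passed the test: GYS1, PHKA1, PHKB and PPP1R3A in Hampshire, from -0.76 to -1.31, and no gene in Pietrain, where the values lay between -0.25 and 0.28.

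Groups of 3 against 3 cannot give an exact permutation p-value below 0.1, and 4 against 3 cannot give one below 0.0286. In Hampshire the exact two-sided permutation test gave 0.1, its smallest value, for the 6 genes whose groups did not overlap (GYS1, GBE1, PHKA1, PHKB and PPP1R3A lower, PYGM higher). Over all genes tested, 45.9% did not overlap in Hampshire, with 23.5% lower and 22.4% higher in the high pigs. GYG1 and PHKG1 gave an exact permutation p of 0.2 and UGP2 of 0.5. In Pietrain the groups overlapped for all 9 genes, where 4.59% of all genes did not overlap, and the exact permutation p ran from 0.257 to 0.943.

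Ratios of read counts within a pig do not depend on scaling between libraries and compare changes of genes, not their levels. They were added after the data had been seen. The ratio of PYGM to GYS1 was 21.5, 38.4 and 33.5 in Hampshire high pigs 8, 9 and 10, and 14.5, 13.3 and 12.6 in low pigs 1, 2 and 3. It was thus higher in every high pig, by 2.25-fold on average (exact permutation p = 0.1, two-sided, the smallest possible). Since PYGM lay higher and GYS1 lower in every Hampshire high pig, this separation and its p-value were fixed in advance and add no support. In Pietrain it ran from 16.97 to 31.1 in the high group and from 21.6 to 35.4 in the low group, with a difference of -0.06 on the log2 scale (exact permutation p = 0.829).

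The catalytic subunit of phosphorylase kinase was also compared with its regulatory subunits within each pig. The ratio of PHKG1 to PHKA1 was 0.735, 0.714 and 0.532 in high pigs 8, 9 and 10 and 0.267, 0.364 and 0.219 in low pigs 1, 2 and 3, a 2.36-fold difference (exact permutation p = 0.1). That of PHKG1 to PHKB ran from 0.750 to 0.895 in the high and from 0.352 to 0.521 in the low group, a 1.93-fold difference (exact permutation p = 0.1). PHKA1 to PHKB, the ratio between both regulatory subunits, overlapped between the groups, at 1.08 to 1.41 against 1.32 to 1.85 (log2 difference -0.29, exact permutation p = 0.2). In Pietrain these 3 ratios overlapped between the groups and differed by -0.03, -0.02 and 0.01 on the log2 scale (exact permutation p = 0.857, 0.943 and 0.857). A test of the breeds against each other was not run on the ratios. PHKG1 is a short gene and PHKA1 and PHKB are long ones, and with a trend on gene span removed in each pig the Hampshire log2 difference between PHKG1 and PHKA1 fell from 1.23 to 0.65 and that between PHKG1 and PHKB from 0.96 to 0.26, while that between PYGM and GYS1 went from 1.17 to 1.03.

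**Figure D3:**
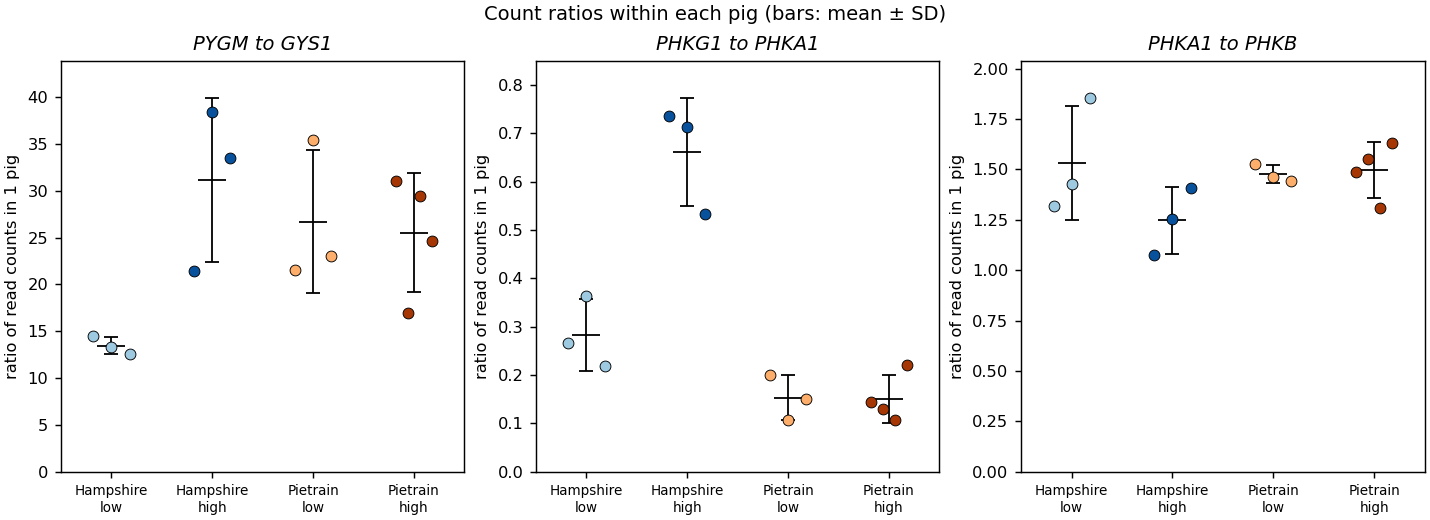
Ratio of read counts of 2 genes within each pig (linear axis from 0), with 1 point per pig and bars for the mean and SD. The Hampshire high pigs lie above the Hampshire low pigs for PYGM to GYS1 and PHKG1 to PHKA1, and overlap with them for PHKA1 to PHKB.

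The size of a gene moved with the Hampshire effect over the whole transcriptome. Across the 9945 Hampshire genes with a position, longer genes had lower fold changes in high pigs (Spearman's rho -0.386, taken over genes, none of which is an independent replicate). The rho was -0.0893 in Pietrain. For Hampshire against Pietrain it was -0.391 at high and -0.215 at low loin weight. The span from start to end was 267 kb for PHKB, 104 kb for PHKA1, 94.6 kb for GBE1 and 19.3 kb for GYS1, and 8.07 kb for PHKG1 and 11.5 kb for PYGM, while PPP1R3A had none. After a trend on gene span was removed in each pig, GYS1 was at -0.75 (adjusted p = 0.0144, edgeR) and PHKA1 at -0.67 (adjusted p = 0.0293, edgeR), and both still passed. PHKB went to -0.29 (adjusted p = 0.246, edgeR) and lost its call, and PHKG1 went to -0.03, against 0.19 before. PPP1R3A could not enter that fit, in which 23.5% of 9945 genes were called. The part of gene size, or of anything that varies with it, in these changes was not tested.

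**Figure D4:**
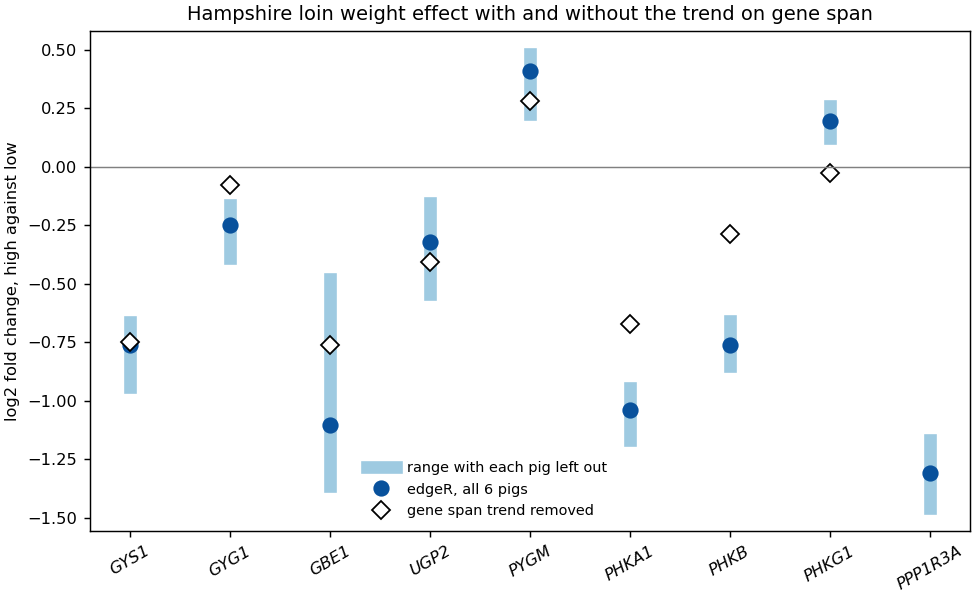
Log2 fold change of the 9 genes in Hampshire (high against low loin weight) in the edgeR fit of all 6 pigs (circles), with each pig left out (bars, lowest to highest) and with the trend on gene span removed (diamonds, none for PPP1R3A). The diamond of GYS1 lies on its circle, while those of PHKA1 and PHKB lie closer to 0, at -0.67 and -0.29.

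Markers of fibre type and of other cells moved between the Hampshire groups as well. Of the slow fibre list, 5 of 8 genes were matched, all 5 were higher in the high pigs, and their summed level was 11699.6 to 17800.0 CPM in the high group against 2834 to 6607 CPM in the low group. Of the fast fibre list, 5 of 10 were matched, 3 had a log2 fold change below 0 and 1 was called lower. The sums were 76720 to 77941 CPM against 75973 to 125273 CPM. Fibroblast markers (3 of 5 matched called higher, sums of 1867 to 4850.1 against 732 to 1573 CPM), adipocyte markers (2 of 3, 26.2 to 75.9 against 9.95 to 16.04 CPM) and macrophage markers (2 of 5, 69.1 to 109 against 25.8 to 51.5 CPM) were higher too, where 12% of all genes were called higher. Of the matched genes, 0 of 3 endothelial, 0 of 2 blood and 0 of 2 liver markers were called. The liver markers had a median log2 fold change of 2.41, with overlapping sums (11.5 to 354 against 0.367 to 65.6 CPM). Of the skeletal muscle list, 5 of 8 were matched, 4 had a log2 fold change above 0 and 1 was called higher (median log2 fold change 0.66). The sums were 141083 to 235803 CPM in the high and 89176 to 130173 CPM in the low group, which did not overlap. In the Pietrain pigs these sums were 69272 to 126146 CPM. In Pietrain 0 markers of these lists were called, and slow fibre sums ran from 747 to 11159 CPM in the high group and from 27.7 to 8271 CPM in the low group. No marker was at 0 in all pigs. The part of fibre type or cell mixture in the glycogen gene changes was not tested, and in whole muscle fewer cells of a type and less RNA per cell cannot be told apart.

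The remaining genes of the pathway gave the surroundings of these changes. Of 38 listed genes 32 were matched and 30 tested, and in Hampshire 7 were called lower and 1 was called higher in high pigs (median log2 fold change -0.11). These 8 of 30 were close to the 26.6% called over all genes. In Pietrain 0 of 30 were called, as over all genes (0%), and the median was 0.10. The difference in loin weight effect between the breeds passed for 4 of 30, all with a lower value in Hampshire, where 4.22% of all genes passed as lower.

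PGM2L1, which makes the sugar bisphosphate that activates phosphoglucomutase, fell by 1.70 on the log2 scale in Hampshire (SE 0.19, adjusted p = 0.00155, edgeR). PRKAA2, the catalytic α2 subunit of AMP-activated protein kinase, a kinase of glycogen synthase, fell by 1.18 (SE 0.16, adjusted p = 0.00276, edgeR). Its difference in loin weight effect between the breeds (-0.93, adjusted p = 0.0412, edgeR) lost its call in 10 of 13 fits with 1 pig left out (adjusted p up to 0.0759, edgeR). The call held only without Hampshire high pig 8 or Pietrain high pig 6 or 7. PRKAB2, the β2 subunit of the same kinase, was at 13.3, 12.9 and 9.98 CPM in Hampshire high pigs 8, 9 and 10 and at 50.5, 37.2 and 25.1 CPM in Hampshire low pigs 1, 2 and 3. All 3 high pigs lay below the low pigs, with a log2 fold change of -1.65 (SE 0.27, adjusted p = 0.00488, edgeR). The loin weight effect on PRKAB2 differed between the breeds by -1.76 (SE 0.33, adjusted p = 0.00970, edgeR). PPP1CA, a catalytic subunit of protein phosphatase-1, was higher, at 88.1 to 96.3 CPM against 52.2 to 73.8 CPM (log2 fold change 0.60, SE 0.17, adjusted p = 0.0335, edgeR). PPP1CA lost its call with the span trend removed (0.28, adjusted p = 0.253, edgeR) and in 5 of 6 fits with a pig left out, namely those without low pig 1 or 3 or high pig 8, 9 or 10. The other 4 genes called lower, named after their values were seen, were the kinase subunit gene PRKAG3, the glucose transporter gene SLC2A4, the hexokinase gene HK2 and the laforin gene EPM2A. PGM1, the main phosphoglucomutase gene, was at 0.24 (SE 0.24) and did not pass (adjusted p = 0.493, edgeR).

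Copies of the same enzymes that other tissues use were low in loin muscle. GYS2, the liver synthase, had 1 to 14 counts per pig and PYGB, the brain phosphorylase, 1 to 12, and both fell under the filter. PYGL, the liver phosphorylase, was at 14.0 to 18.9 CPM in Hampshire high and 18.4 to 29.7 CPM in Hampshire low pigs (log2 fold change -0.46, SE 0.22, adjusted p = 0.147, edgeR). The liver subunit genes PHKA2 (0.66, SE 0.36, adjusted p = 0.200) and PHKG2 (0.46, SE 0.22, adjusted p = 0.145, edgeR) did not pass either. How reads shared by such copies were assigned is not given in the sources used here, so small values of a copy are uncertain beside a much more abundant partner. The libraries do not mark strand, so reads from an overlapping antisense gene cannot be told apart from those of the gene named. GYG2 was not analysed here.

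**Figure D5:**
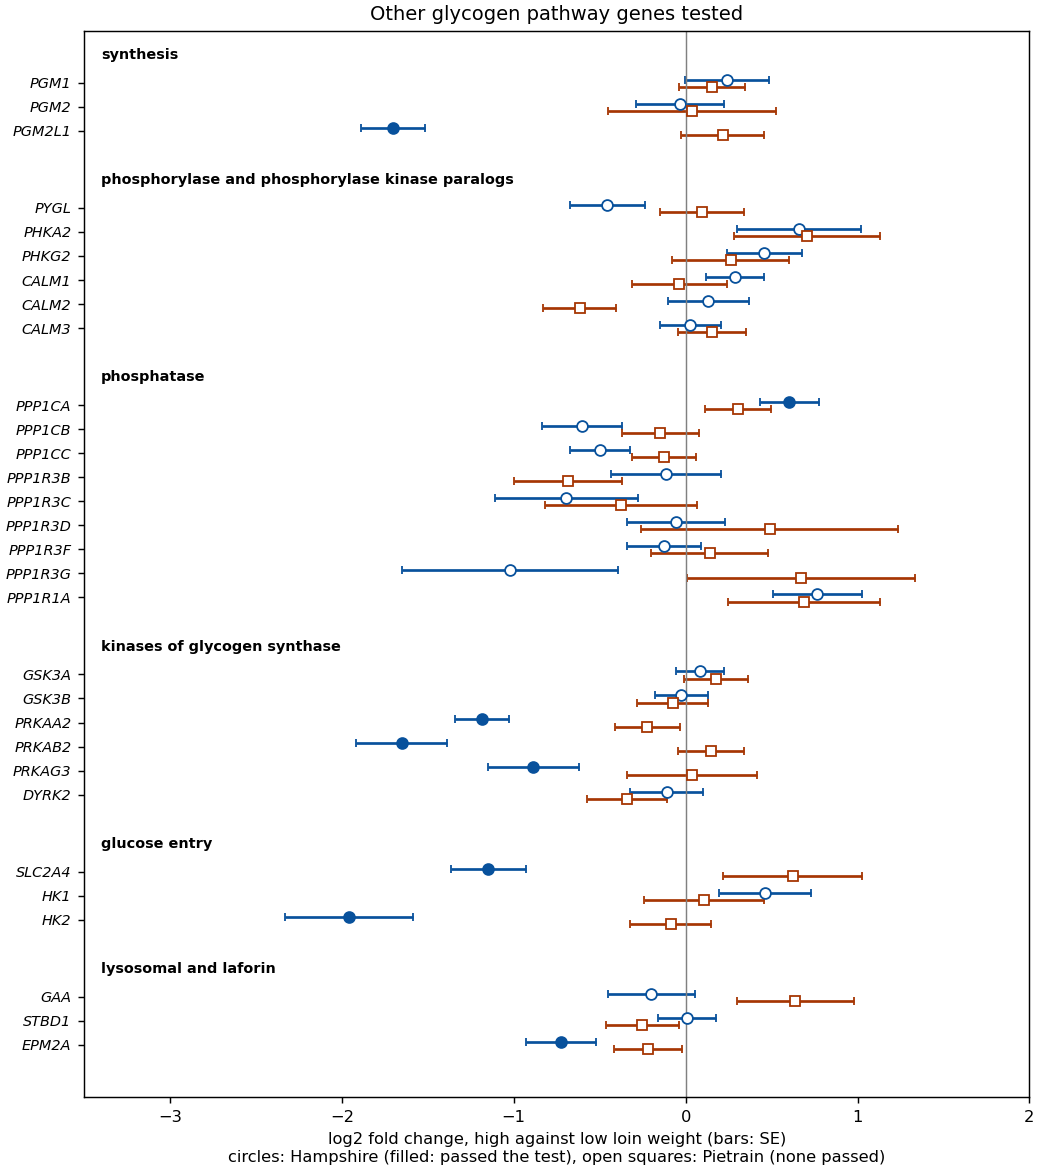
Log2 fold change (bars, SE) for high against low loin weight of the 30 other glycogen pathway genes tested, grouped by role, in Hampshire (circles, filled where the test passed) and Pietrain (squares). HK2 lies farthest left in Hampshire, at -1.96, and no Pietrain gene passed.

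The breeds were also set side by side at each loin weight, although breed and count table cannot be told apart, since each breed came in a table of its own. Among pigs with low loin weight, 17.9% of 12831 genes were called, 7.84% higher and 10.1% lower in Hampshire, and 4 of the 9 glycogen genes were among them. GYS1 was higher in Hampshire (log2 fold change 1.01, SE 0.24, adjusted p = 0.0187, edgeR). PHKA1 (-0.74, adjusted p = 0.0242), PHKB (-0.79, adjusted p = 0.0191) and PPP1R3A (-0.61, adjusted p = 0.0405, edgeR) were lower in Hampshire. For these 4 the breeds did not overlap, as for 42.8% of all genes. All 4 calls were lost without Hampshire low pig 2 or 3 or Pietrain low pig 5 or 8, fits in which 0.828%, 3.78%, 1.23% and 0.842% of all genes were called. The log2 fold change of GYS1 was still 0.89 to 1.12 in those 4 fits. Over the 4 alternative settings, the span trend removed among them, PHKA1 ran from -0.76 to -0.55 and PHKB from -0.80 to -0.58. PPP1R3A lost its call in 9 of 13 fits with 1 pig left out, also without Pietrain high pig 1 or 2 or Hampshire high pig 8, 9 or 10, and ran from -0.78 to -0.43.

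Among pigs with high loin weight, 46.8% of all genes were called, 24.2% as lower in Hampshire, so that 4 of 9 called was close to the share called over all genes. The 4 were lower in Hampshire and did not overlap with Pietrain, where 48.7% of all genes did not overlap. They were PPP1R3A (-1.72, SE 0.19, adjusted p = 1.94e-05, edgeR), PHKA1 (-1.60, SE 0.19, adjusted p = 3.41e-05, edgeR), PHKB (-1.34, SE 0.18, adjusted p = 9.75e-05, edgeR) and GBE1 (-1.34, SE 0.39, adjusted p = 0.0113, edgeR). Over the 4 alternative settings, the span trend removed among them, PHKA1 ran from -1.61 to -1.10, PHKB from -1.35 to -0.72 and GBE1 from -1.35 to -0.84. The part of gene size in these breed differences was not tested. GYS1 was at 0.02 (SE 0.23, 95% interval -0.47 to 0.50). Without Pietrain high pig 7, the pig with the highest PYGM and PHKG1 level of its breed, 7 of 9 were called, where 49.3% of all genes were called. UGP2 (0.69), PYGM (0.49) and PHKG1 (0.76) were then called as higher in Hampshire.

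In order of group means, PHKA1, PHKB and PPP1R3A were alike, with Pietrain low highest, then Pietrain high, Hampshire low and Hampshire high. The highest mean was 3.44, 2.91 and 3.77 times the lowest for these 3 genes. Of the neighbours in that order, Hampshire low and Hampshire high differed by the test, both Pietrain groups did not pass it, and Pietrain high against Hampshire low was not tested. For GYS1 the order was Hampshire low, Hampshire high, Pietrain high and Pietrain low, with 2.02 times between the ends, and of these neighbours Hampshire low against Hampshire high passed the test.

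Profiles over the 13 pigs, centred on each gene's mean log2 CPM, were compared by their root mean square difference over 9815 genes. Closest to PYGM, whose own SD was 0.28, were POLDIP2 (0.13), CMPK1 (0.13) and FBXW4 (0.13). Those closest to GYS1, whose own SD was 0.48, were LONP2 (0.19), MYO19 (0.22) and ALAS1 (0.22).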

How the data were processed

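The authors sequenced muscle RNA of 13 pigs (TruSeq v2 libraries, which do not mark strand) and deposited raw read counts for 25322 Ensembl genes, without normalization, in 1 table per breed. STAR, RSEM, FastQC and DESeq2 are listed in the submitters' processing notes with the build Sscrofa10.2. How reads were counted is not given in the sources used here. The authors' tables of comparisons were used for gene names, positions and gene type only, and their fold changes and p-values were not used. All count columns were mapped to a pig (0 unmapped).

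Counts were tested with edgeR 4.0.16 in R 4.3.3 (TMM, filterByExpr, glmQLFit, glmQLFTest), within each breed or, between breeds, in 1 fit of 13 pigs. Standard errors were derived from edgeR's F statistic. For the exact permutation tests 0.5 was added to CPM before taking log2. Symbols were known for 13168 genes, 11804 from a RefSeq table of Sscrofa11.1 used for names only. The glycogen genes and lists were chosen with earlier results of these data known. Genes named were the 9 members, the remaining enzymes and paralogs, per breed the 3 called genes of the pathway list in each direction with the smallest adjusted p, and the 3 profiles nearest to PYGM and GYS1. Alternatives were DESeq2 1.42.0, its size factors, other filters, no fold threshold, other fits, a per-pig lowess trend on gene span, and leaving out each pig. The tests were checked on simulated counts. Pigs of 1 group differed by more than counting noise in all 15 pairs. Plots were made in Python 3.11.15 (matplotlib 3.10.9). 1 gene of the pathway list is not reported here.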

Additional observations from a re-analysis of the deposited data

Results flagged for a closer look

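PPP1R3A stood out because its loin weight effect differed between the breeds when that difference was tested, at -1.11 on the log2 scale for Hampshire minus Pietrain (adjusted p = 0.0249, edgeR's quasi-likelihood test). The 3 Hampshire high pigs lay below the 3 Hampshire low pigs, while the Pietrain groups overlapped. PPP1R3A has no position in the tables used, so this value could not be computed with the span trend removed. A check for 1 pig apart from the others needs 4 pigs, so it was made in the Pietrain high group alone, where it marked 0 of 9 genes. The groups of 3, both Hampshire groups among them, were not examined.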

How the results depend on the processing

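Counts of the 9 genes called stayed within 1.5 times under most settings. In Hampshire 4 became 5 with DESeq2 (28.2% of all genes called) and 2 of 8 with the span trend removed (23.5%). Of the calls lost with the span trend removed, 1 is PPP1R3A, which has no span. With 1 pig left out the count was 2 to 4, where the main fit called 26.6% of all genes. It was 2 without Hampshire low pig 3 (9.8% of all genes called) or Hampshire high pig 10 (14%). In Pietrain the count was 0 under each setting run. For the difference in loin weight effect between breeds 1 became 3 with DESeq2 and 0 of 8 with the span trend removed. The loss of the PPP1R3A call there was by construction, since that gene has no span. The other 8 genes stayed in that fit and were not called, as in the main fit. With 1 pig left out it ran from 0 without Hampshire high pig 10 (3.75% of all genes called) to 3 without Pietrain high pig 6 (8.21%). Hampshire against Pietrain gave 2 with the span trend removed at low and at high loin weight, in place of 4 (1 call of each loss is PPP1R3A, which has no span), and 0 to 4 and 4 to 7 with 1 pig left out. In the fits over 13 pigs 77.7% of genes had a span, against 81.3% in the Hampshire fit, so the span check there covers those genes only. Over all genes the difference in loin weight effect had 757 calls of 12831 genes (5.9%). DESeq2 gave 1224 of the same number (9.54%), and with the trend removed 472 of the 9975 genes with a span were called (4.73%). Apart from PPP1R3A and the smaller gene set, the cause of these shifts was not tested.

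Signs turned only for values that had not passed. With the span trend removed PHKG1 in Hampshire went to -0.0267, GYG1 between breeds to 0.0902 (low) and 0.23 (high), and the PHKA2 difference to 0.25, which was 0.0027 with DESeq2 and 0.0056 with its size factors. GYS1 between breeds at high loin weight was -0.0034 when only those pigs were fitted. With 1 pig left out the ranges crossing 0 were PGM1 in Hampshire (-0.0422 to 0.38), and in Pietrain GBE1 (-0.0840 to 0.25), PHKG1 (-0.39 to 0.0796) and PYGL (-0.0558 to 0.28). For the difference in loin weight effect they were GYG1 (-0.20 to 0.12), UGP2 (-0.29 to 0.15), PGM1 (-0.20 to 0.23), PHKA2 (-0.34 to 0.21) and PHKG2 (-0.0797 to 0.38). Between breeds they were GYG1 (-0.16 to 0.14) and GBE1 (-0.80 to 0.0818) at low, and GYS1 (-0.18 to 0.19) and GYG1 (-0.18 to 0.0313) at high loin weight. The Pietrain log2 ratios did so as well: PYGM to GYS1 (-0.20 to 0.16), PHKG1 to PHKA1 (-0.26 to 0.19), PHKG1 to PHKB (-0.26 to 0.22) and PHKA1 to PHKB (-0.0312 to 0.0763). No paired analysis was possible because the groups compared within a breed share no pig numbers. With 3 or 4 pigs a group and 25 to 195 counts, GBE1 was the least precise of the 9 genes.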
